A study of Macaca fascicularis with 11 samples.

Results

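Endoderm-like cells were followed in cynomolgus macaque embryos that had been cultured to Day 10, Day 12 and Day 14, with and without editing of the transcription factor gene ISL1. They made up 479 of 33330 cells (1.44%). The members were chosen from their own expression. Each cell received 4 scores, the mean over a list of genes of the natural logarithm of 1 plus its counts per 10000, for trophoblast, epiblast, extraembryonic mesenchyme and endoderm. A cell was called endoderm-like when its endoderm score was the highest and when at least 3 of the 6 endoderm genes, APOA1, TTR, FOXA2, SOX17, IHH and VTN, were detected in it. By the same scores 22835 cells were trophoblast-like, 2894 epiblast-like and 6499 mesenchyme-like.

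Wild-type embryos gave 6 single-cell libraries, 2 at each day, from 12 embryos, and ISL1 hypomorphic mutant embryos gave 5 libraries, 1 at Day 10 and 2 at Day 12 and at Day 14, from 11 embryos. The blastocysts of both genotypes were frozen, thawed, freed of the zona pellucida and cultured without a uterus. Mutants came from zygotes injected with Cas9 (as mRNA per the labels, as protein per the methods of the study) and a pair of guide RNAs against ISL1, so each embryo is a mosaic of different edits and not a clonal line, and the wild type did not carry the edits. A library pooled 1 to 3 embryos, and the labels assign the libraries of each day and genotype to batch 1 or batch 2. The library, not the cell, is the replicate throughout, and n below counts libraries. Embryos within a library cannot be told apart, so the spread between libraries is the only error.

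The endoderm of the early embryo begins as primitive endoderm, or hypoblast, which lines the inside of the blastocyst and covers the epiblast. It goes on to line the yolk sac, where it secretes apolipoproteins, carrier proteins and clotting factors much as the liver does later. The cells that lie against the epiblast lay down basement membrane, and a patch of them, the anterior visceral endoderm, is known in the mouse for transcription factors such as Lhx1, Otx2 and Gsc and for signals that pattern the epiblast. APOA1 is the main protein of high-density lipoprotein, TTR carries thyroid hormone and retinol, VTN is an adhesive plasma protein, IHH is a hedgehog ligand, and SOX17 and FOXA2 are transcription factors of endoderm.

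The libraries held from 9 to 133 endoderm-like cells. Wild-type libraries had 45 and 20 of them at Day 10, 16 and 19 at Day 12, then 48 and 35 at Day 14. In mutant libraries there were 26 at Day 10, 133 and 27 at Day 12, then 101 and 9 at Day 14 (here and below, values of a pair are given in the order batch 1, batch 2). Their summed unique molecular identifiers (UMIs, each standing for 1 captured transcript) ran from 153801 in the second mutant library of Day 14 to 2825026. The median endoderm-like cell held 15133 to 73338 UMIs in wild-type and 6424 to 55154 in mutant libraries, a difference of -17290 UMIs averaged over days (exact permutation test of genotype labels within days, two-sided, p = 0.0463, the smallest p allowed being 0.00926). Levels are therefore given as counts per 1000000 summed UMIs (CPM), and shares of cells with a gene after each cell had been thinned to 5000 UMIs, which left out 30 of the 479 cells. Of all 33330 cells 249 had a barcode that also occurs in another library, and 1 of these was endoderm-like.

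One library stood apart from the other mutant libraries in 2 unnamed transcripts. ENSMFAG00000027138 was at 209 CPM in endoderm-like cells of the mutant library of Day 10, at 302 and 659 CPM in those of Day 12 and at 171 CPM in the first of Day 14, against 0.354 to 9.03 CPM in the 6 wild-type libraries. In the second mutant library of Day 14 it was at 0. ENSMFAG00000040719 had the same pattern, with 58.4, 103, 223, 66.1 and 0 CPM in the mutant libraries in the same order and at most 3.61 CPM in wild type. The pattern held in trophoblast-like cells too, where ENSMFAG00000027138 was at 194 to 518 CPM in the first 4 mutant libraries and at 2.53 CPM in the library labelled mutant, Day 14, batch 2, against 1.18 to 5.16 CPM in wild type. Neither transcript is ISL1, and whether either marks the edit was not tested. The 2 transcripts were themselves picked for their small p between genotypes over all days, in a fit of these same libraries. The trophoblast-like cells come from the same libraries, so they are no independent check. In other genes the same library lay with the mutants, with MEIS2 at 23.8 to 27.9 CPM in the 5 mutant libraries against at most 9.23 CPM in wild type, and with TMEM45A above both wild-type libraries of Day 14. Both genes were named for their small p between genotypes in a fit that held this library, so they are no check of its label. This library came from 1 embryo, as did the first wild-type and the second mutant library of Day 12. Per the study the mutant embryos were genotyped by PCR, in bulk on cells left over from sequencing, and it reports full editing efficiency. Whether the label is right was not tested, and the share and the lists and leading genes at Day 14 and over all days are also given without this library.

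The 6 choosing genes were detected in every library, as the rule required of the cells, and are described here without a test. APOA1 was the most even of them, with 59066 and 57471 CPM at wild-type Day 10, 67061 and 47624 CPM at Day 12, 61430 and 54465 CPM at Day 14, and 46377, 58752, 53598, 60116 and 53270 CPM in the 5 mutant libraries. All 11 libraries lay within a narrow band. TTR was the most uneven. It stood at 2158 and 728 CPM at wild-type Day 10, at 2512 and 1711 CPM at Day 12 and at 1818 and 12249 CPM at Day 14, and in mutants at 1604 CPM at Day 10, 3417 and 924 CPM at Day 12, then 21752 and 17139 CPM at Day 14. The 3 highest libraries were all of Day 14, but the first wild-type library of that day was not among them.

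Among the other choosing genes VTN ranged from 248 to 1875 CPM and was highest in the first mutant library of Day 14. IHH lay between 179 and 562 CPM, with both genotypes across the whole range. SOX17 lay between 247 and 340 CPM in wild type and between 281 and 644 CPM in mutants. FOXA2 varied least of the 3, from 101 to 232 CPM. In the thinned cells the lowest and highest share over libraries with a UMI was 31.3% and 76.4% for TTR, 35.0% and 57.9% for FOXA2 and 56.3% and 88.9% for SOX17. In trophoblast-like cells of the same depth the shares were at most 1.97%, 0.164% and 1.05%. The rule chose the cells by these genes, so the gap between the classes is a description only. VTN was found in 44.4% to 85.0% and IHH in 50.0% to 100% of members, against at most 1.35% and 0.232%. APOA1 was found in 98.6% to 100% of members, but also in 0.775% to 45.8% of trophoblast-like cells.

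**Figure D1:**
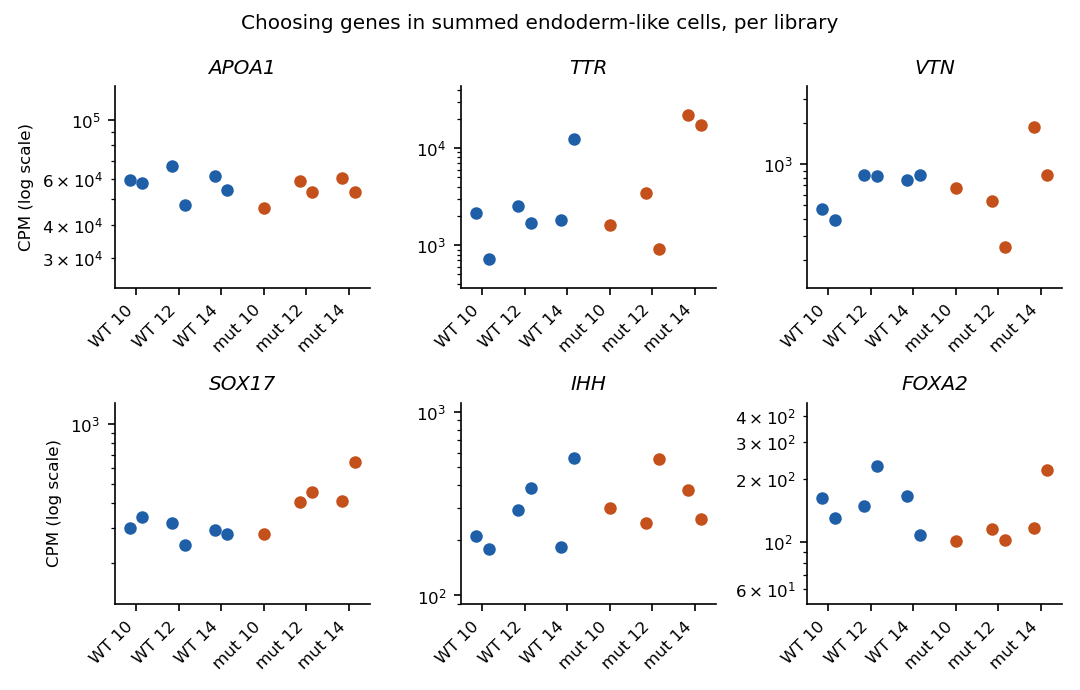
Level of the 6 choosing genes in summed endoderm-like cells, in CPM on a log axis, with 1 point per library (blue wild type, WT, and orange mutant, mut, by day; the left point of a pair is batch 1). APOA1 stays between 46377 and 67061 CPM, whereas TTR runs from 728 to 21752 CPM with its 3 highest libraries at Day 14.

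Members lay both far from the border of the rule and at it. All 6 endoderm genes were found in 219 of the cells, 5 in 142, 4 in 83 and 3, the least allowed, in 35. Of the members 13 had an endoderm score within 0.5 of the next score. The 10 members of smallest margin had a median margin of 0.162, and the 10 nearest cells outside the rule one of -0.118. A further 23 cells had the endoderm score highest but fewer than 3 of the genes, and 88 cells had at least 3 of the genes but another score highest, with a median of 46502 UMIs. A doublet caller (Scrublet) marked 12 of the 479 members and 534 cells in all. They were kept in the main results.

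Endoderm-like cells were a minority in every library, and the mean share was lower at each later day in both genotypes, which was not tested. In wild type they were 6.84% and 2.99% of the cells at Day 10, 4.92% and 1.94% at Day 12, then 1.51% and 2.53% at Day 14. The group means were 4.91% ± 2.73 (SD, n = 2), 3.43% ± 2.11 and 2.02% ± 0.72. In mutants the share was 3.38% at Day 10, 2.21% and 0.462% at Day 12, then 1.05% and 0.232% at Day 14, with means of 1.34% ± 1.24 (n = 2) at Day 12 and 0.641% ± 0.578 at Day 14. At Day 14 both mutant libraries lay below both wild-type ones, while at Day 12 the genotypes overlapped.

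Averaged over days the mutant share was 1.67 percentage points lower (difference -1.67, exact permutation test of genotype labels within days, two-sided, p = 0.157, with 0.00926 the smallest p that the 108 arrangements allow). The difference was not larger than the spread between libraries. Trophoblast-like cells are the bulk of every library, so the share was also taken over the cells whose highest score was not the trophoblast one. It was then 5.19% to 51.6% in wild type and 0.761% to 8.31% in mutants, and the difference of -10.5 percentage points had p = 0.185 (exact permutation test). The first wild-type library of Day 12 gave the value of 51.6% from 16 of 31 cells (95% exact binomial interval 33.1% to 69.8%, counting error only). Without the second mutant library of Day 14 the difference over all cells was -1.53 percentage points (exact permutation test, p = 0.222).

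**Figure D2:**
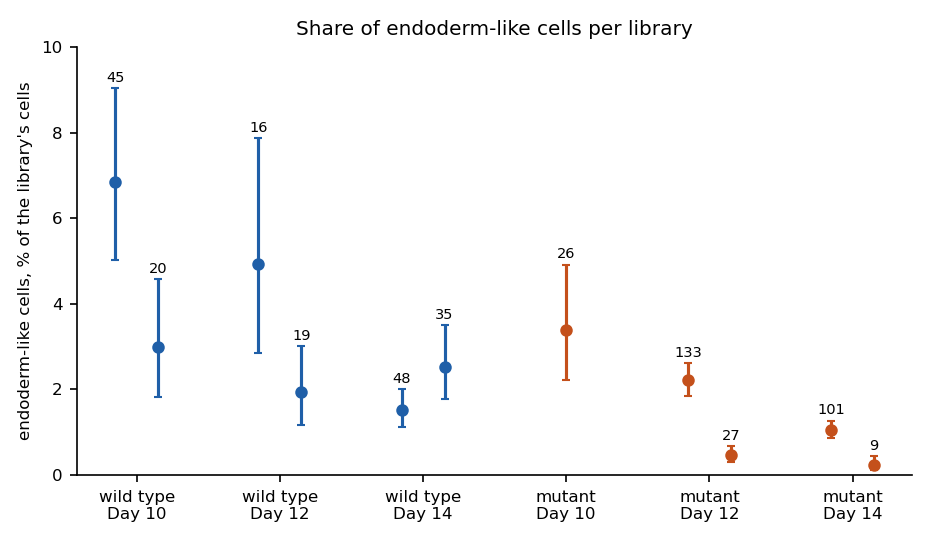
Endoderm-like cells as a percentage of all cells of a library, 1 point per library with its exact binomial 95% interval (counting error only) and the number of endoderm-like cells above it (blue wild type, orange mutant; the left point of a pair is batch 1). Shares run from 6.84% in the first wild-type library of Day 10 to 0.232% in the second mutant library of Day 14, and the intervals of a pair do not overlap at wild-type Day 10 and in mutants at Day 12 and Day 14, while they overlap at wild-type Day 12 and Day 14.

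Outside the rule, endoderm-like cells carried a set of genes at levels above those of the other classes. For each gene with a symbol the level was compared with the highest of the trophoblast-like, epiblast-like and mesenchyme-like sums of the same library, as log2((CPM + 25)/(CPM + 25)). This contrast is the one that chose the cells and has no test. The largest medians over libraries were those of S100A14 (4.02), SPINK1 (3.80), KHDC1L (3.75), LOC101865018 (3.65) and SERPINE2 (3.63), followed by S100A16, CDA, GSC, CDH2, F2, CYP26A1, TNNC1, PDZK1, GAMT, APOE, FGF17, COL9A2, RSPO3, CTSE and OTX2 (2.45). The difference was positive in 11 of 11 libraries for 19 of these 20 genes and in 9 for RSPO3. The 20 were picked by the median of this same difference, so the count is a description only. A class without cells in a library did not enter the highest sum of that library. They include secreted proteins (SPINK1, a trypsin inhibitor, SERPINE2, a serine protease inhibitor, F2, the clotting factor prothrombin, and APOE), enzymes (CYP26A1, which degrades retinoic acid, GAMT, which makes creatine, and CDA, a cytidine deaminase), signals (FGF17, and RSPO3, which enhances WNT signalling) and 2 transcription factors of anterior endoderm (GSC and OTX2).

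Secreted plasma proteins were present in every library. APOE ran from 8512 to 16162 CPM, APOC1 from 295 to 944 CPM and MTTP, which loads lipid onto lipoproteins, from 53.4 to 163 CPM. F2 lay between 107 and 427 CPM, TFPI, an inhibitor of coagulation, between 283 and 1333 CPM, and PROS1, an anticoagulant cofactor, between 76.1 and 195 CPM. The scaffold protein PDZK1 stood at 128 to 390 CPM. Each of these genes was thus detected in 11 of 11 libraries.

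Of the 11 genes of the anterior endoderm list only 4 have an identifier, and 3 of these, GSC, LHX1 and OTX2, are described here. They were found at every day and in both genotypes. LGR5 also has an identifier but is not given here. The rest of the list, among them HHEX, CER1 and LEFTY1, could not be looked at. GSC was at 448 and 308 CPM at wild-type Day 10, 209 and 225 CPM at Day 12 and 365 and 137 CPM at Day 14, and at 308, 219, 232, 207 and 319 CPM in the mutant libraries. LHX1 ran from 62.7 to 319 CPM and OTX2 from 64.4 to 182 CPM. The libraries of the genotypes overlapped for all 3, and mutant minus wild type over all days was -0.10 ± 0.25 for GSC, -0.73 ± 0.30 for LHX1 and 0.39 ± 0.24 for OTX2 (log2 change ± SE, edgeR quasi-likelihood test, adjusted p = 0.978, 0.485 and 0.693). After thinning, GSC was detected in 26.5% to 70.8% of endoderm-like cells of a library and in at most 0.254% of trophoblast-like cells, and LHX1 in 27.8% to 66.7% against at most 0.0928%.

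These genes were not spread evenly over the cells. In the 5 libraries with at least 30 endoderm-like cells of 5000 UMIs or more, GSC varied from cell to cell with OTX2 (Spearman's rho 0.43 to 0.57), with FGF17 (0.30 to 0.61) and with LHX1 (0.07 to 0.71). It ran against RSPO3 (-0.60 to -0.40), SPINK1 (-0.55 to -0.22) and TTR (-0.58 to -0.12). TTR in turn ran with VTN (0.28 to 0.86), SPINK1 (0.31 to 0.77), F2 (0.30 to 0.57) and FN1, a matrix glycoprotein (0.34 to 0.56). TTR and VTN are among the genes that chose the cells. These values are over the 34 to 133 cells of a library that were thinned to 5000 UMIs (72 of 101 in the first mutant library of Day 14). The cells share a library, and the values are given as a description.

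TTR itself was concentrated in a few cells. A level of 10000 CPM, chosen after the values had been seen, was passed by 67 of the 479 cells (14.0%). They were 12 of 35 cells in the second wild-type library of Day 14, 31 of 101 and 2 of 9 in the mutant libraries of that day and 14 of 133 in the first mutant library of Day 12, with 0 to 3 in each of the other 7 libraries. In the 10 libraries that had any, they carried 31.7% to 97.5% of the TTR UMIs of all endoderm-like cells. The 3 libraries of highest TTR were among the 4 in which more than 10% of the endoderm-like cells passed this level, while the median cell of a library had 14.8 to 2051 CPM.

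Some genes were found mainly outside the cells with much TTR. After thinning to 5000 UMIs, GSC was found in 0 of 58 such cells, which allows a share of up to 5.17%, and in 213 of the 391 other endoderm-like cells. This limit is for cells with a UMI at that depth and takes the pooled cells of all libraries as independent, which cells that share a library are not. Before thinning 2 of the 67 cells had a GSC UMI. FGF17 was found in 0 and 154 of them, OTX2 in 2 and 158, EOMES, a T-box factor, in 2 and 130, LHX1 in 4 and 174, and CYP26A1 in 3 and 198. Of these 6 genes GSC, OTX2 and LHX1 are in the anterior endoderm list. Within the 5 libraries in which correlations were computed, Spearman's rho with TTR over cells was negative in all for GSC (-0.58 to -0.12), whereas it ranged from negative to positive for FGF17 (-0.59 to 0.08), OTX2 (-0.50 to 0.03), EOMES (-0.49 to 0.09), LHX1 (-0.35 to 0.08) and CYP26A1 (-0.60 to 0.12). In the other direction stood SPINK1, found in 54 of 58 against 159 of 391, RSPO3 in 54 against 138, F2 in 52 against 196 and NID2, a basement membrane protein, in 44 against 123. SOX17 and IHH were found in both, in 33 and 38 of the 58 and in 278 and 270 of the 391.

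The hormone subunit CGA, a trophoblast gene, was found in 26 of the 58 cells with much TTR (44.8%) and in 43 of the 391 others, against 25.2% to 89.5% of trophoblast-like cells. Its part in the pattern was not tested. The mesenchyme gene COL3A1 was found in 2 of the 58 and 15 of the 391.

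**Figure D3:**
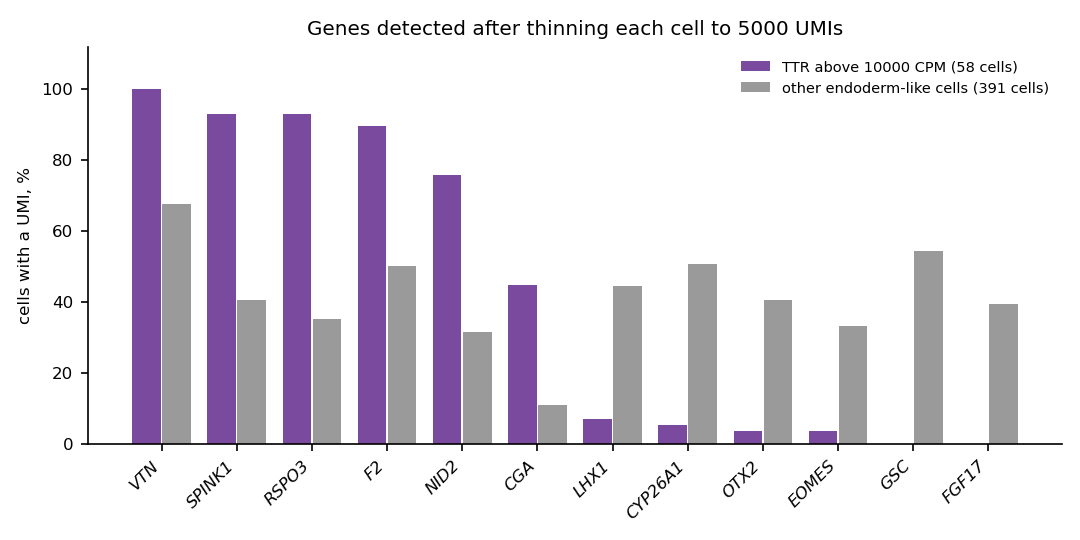
Percentage of endoderm-like cells with at least 1 UMI of a gene, after each cell had been thinned to 5000 UMIs, for the 58 cells with TTR above 10000 CPM (purple bars) and the 391 others (grey bars), cells of all libraries together. SPINK1, RSPO3, F2 and NID2 were found more often in the first set, and GSC and FGF17 in none of its cells at this depth; bars carry no error because the cells are not replicates.

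Markers of the other cell types were low but not all at 0. The 7 trophoblast genes of the rule summed to 26.5 to 693 CPM in wild-type and 67.3 to 1015 CPM in mutant libraries, with CGA between 0 and 584 CPM. The 5 epiblast genes summed to 182 to 531 and 314 to 607 CPM, and POU5F1, the defining pluripotency factor, was at 7.22 to 68.4 CPM. The 7 mesenchyme genes summed to 54.1 to 126 CPM in wild type and 125 to 397 CPM in mutants, with an overlap between 125 and 126 CPM. COL3A1 was at 0 in the 4 wild-type libraries of Day 10 and Day 12, at 0.879 and 1.81 CPM at Day 14 and at 6.44 to 109 CPM in the 5 mutant libraries. HGF was at 0 to 2.47 CPM in wild type against 6.50 to 48.1 CPM, and COL1A1 at 0 to 13.2 CPM against 13.9 to 113 CPM. The other 4 genes of this list overlapped between the genotypes, among them COL6A2, with 53.5 to 101 CPM against 44.1 to 126 CPM. The part of such transcripts in the genotype comparisons below was not tested.

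Further markers that the rule did not use were summed by cell type. The 10 other trophoblast genes summed to 111 to 654 CPM in wild-type and 182 to 553 CPM in mutant libraries, with S100P at 14.8 to 269 CPM and PAGE4 at 4.94 to 319 CPM over all libraries and KISS1 at 0 throughout. The 10 other mesenchyme genes summed to 450 to 1346 CPM and 777 to 1511 CPM, most of it from VCAN, a matrix proteoglycan, at 221 to 1028 CPM. The 6 other epiblast genes summed to 262 to 515 CPM and 356 to 1307 CPM, from LIN28A (152 to 439 CPM) and GDF3 (44.6 to 1060 CPM) above all, with FGF2 at 0 throughout. The 8 amnion genes reached only 16.1 to 32.1 CPM and 16.8 to 45.5 CPM in sum, and TFAP2B and WNT6 were at 0 in every library. The 6 early mesoderm genes summed to 135 to 352 CPM and 71.5 to 194 CPM, mostly FOXH1, with MSGN1 at 0 throughout, and the 6 endothelial and blood genes to 28.6 to 98.9 CPM and 45.5 to 158 CPM, with PECAM1 at 10.6 to 81.2 CPM. The genotypes overlapped in each of these 6 sums. ISL1 itself was at 7.29 to 26.0 CPM in all 11 libraries and found in 0% to 11.5% of thinned endoderm-like cells, against 0.231% to 1.47% of trophoblast-like cells. Mutant minus wild type over all days was -0.07 ± 0.37 for ISL1 (log2 change ± SE, edgeR, adjusted p = 1.0). Tags at the 3′ end of a transcript do not cover the edited stretch, so the level is no check of the edit.

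The wild-type days were compared to see how the endoderm-like cells differ between early and late days of culture. Day 14 against Day 10 gave 2 genes past a false discovery rate (FDR) of 1% among 9661 tested (0.0207%; edgeR quasi-likelihood F test on summed UMIs, two-sided, with the 25 rule genes left out). Both are without a symbol. ENSMFAG00000040826 rose, from 0 and 1.73 CPM at Day 10 through 44.2 and 44.4 CPM at Day 12 and then 80.4 and 70.4 CPM at Day 14 (adjusted p = 0.00668). The mutant libraries had 10.4 CPM at Day 10, 70.0 and 104 CPM at Day 12 and 104 and 195 CPM at Day 14. The gene was at most 0.0866 CPM in any trophoblast-like sum and 0.361 CPM in any epiblast-like one. ENSMFAG00000042797 fell, from 90.3 and 64.4 CPM to 0.439 and 0 CPM (adjusted p = 0.00814), with 6.54 and 2.47 CPM at Day 12 and at most 3.89 CPM in mutants. With the batch as a block the count was 12 and with DESeq2 36, but no gene passed when the first wild-type library of Day 10, of Day 12 or of Day 14, the mutant library of Day 10 or either mutant library of Day 14 was left out, or when only libraries with at least 20 endoderm-like cells were used.

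The named genes of smallest p did not pass by edgeR in the fit of group means, and their values are given as such. TINAGL1, a secreted matrix protein, stood at 3.19 and 1.73 CPM at Day 10 and 41.3 and 50.6 CPM at Day 14 (log2 change 4.09 ± 0.66 SE, adjusted p = 0.0447). CTSE, an intracellular aspartic protease, was at 143 and 160 CPM at Day 10, 181 and 227 CPM at Day 12 and 514 and 610 CPM at Day 14 (1.86 ± 0.32, adjusted p = 0.0594). Next came ITM2A, CYBA, a subunit of NADPH oxidase, and HPN, a membrane serine protease, with log2 changes of 2.95, 1.83 and 1.99. In each of the 5 the Day 14 libraries lay above the Day 10 ones, as in 19.4% of all tested genes. The 5 were picked by p in this same comparison, so the lack of overlap adds nothing to it.

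ITIH5, a hyaluronan-binding protein, went from 73.6 and 56.4 CPM to 3.08 and 10.8 CPM (-3.59 ± 0.57, adjusted p = 0.0447). KHDC3L, a maternal-effect gene of the oocyte, stood at 573 and 253 CPM at Day 10, 31.9 and 17.3 CPM at Day 12 and 33.8 and 0 CPM at Day 14 (-4.25 ± 0.86, adjusted p = 0.0806). The remaining genes of this rank were CDX1, a caudal homeobox factor (20.5 and 58.1 CPM to 1.76 and 1.81 CPM), FOXR1 and NDRG2. These libraries did not overlap either, as in 19.5% of all tested genes downward, and these genes were also picked by p. With the batch as a block KHDC3L passed (-4.67, adjusted p = 0.00784). DESeq2 passed TINAGL1, CTSE, ITM2A, CYBA, HPN, ITIH5 and NDRG2 of these genes.

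The lists were then counted. No list member passed the FDR by edgeR without the block, DESeq2 passed 6 (CTSE, MIXL1, WLS, DNMT3L, ANKRD37 and SPARC), and the counts are those of genes whose 2 Day 14 libraries lay entirely above or below the 2 Day 10 libraries, which 19.4% of all tested genes did upward and 19.5% downward. Of the 825 tested genes with a symbol, from which the lists were drawn, 25% did so upward and 17.3% downward. Of 9 lipoproteins and carriers 4 lay above and 1 below (median log2 change 0.74, against 0.00 over all genes). PTGDS, a prostaglandin D synthase that also carries lipids, was at 55.2 and 21.3 CPM at Day 10 and 185 and 61.4 CPM at Day 14, and TCN2, which carries vitamin B12, at 27.3 and 28.2 CPM and 64.2 and 63.2 CPM. Of 5 coagulation genes 2 lay above and 1 below (median 0.56), with TFPI at 384 and 283 CPM and 922 and 699 CPM. Of 16 genes of endoderm metabolism and transport 5 lay above and 1 below (median 0.40), among them PDZK1 with 128 and 155 CPM and 254 and 291 CPM. With lists this short, counts of 2 of 5 and 5 of 16 are not far from these shares.

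Of 8 basement membrane genes 5 lay below and 1 above (median -0.60). SPARC, a matrix glycoprotein, stood at 845 and 1032 CPM at Day 10, 240 and 583 CPM at Day 12 and 178 and 237 CPM at Day 14 (-2.22 ± 0.55, adjusted p = 0.144). NID2 was at 652 and 652 CPM, 535 and 590 CPM and 56.7 and 213 CPM (-2.37 ± 0.73, adjusted p = 0.254). FN1 was the 1 gene in the other direction, with 1647 and 2086 CPM at Day 10 and 2863 and 4658 CPM at Day 14. Of 8 naive-state and maternal-effect genes 4 lay below and 0 above (median -0.63): KHDC3L, DNMT3L (183 and 132 CPM to 7.03 and 32.5 CPM), OOEP (181 and 82.2 CPM to 50.1 and 57.8 CPM) and NLRP7 (456 and 508 CPM to 250 and 325 CPM). The primitive streak and mesendoderm factor MIXL1 was at 124 and 339 CPM at Day 10 and 45.7 and 43.3 CPM at Day 14.

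**Figure D4:**
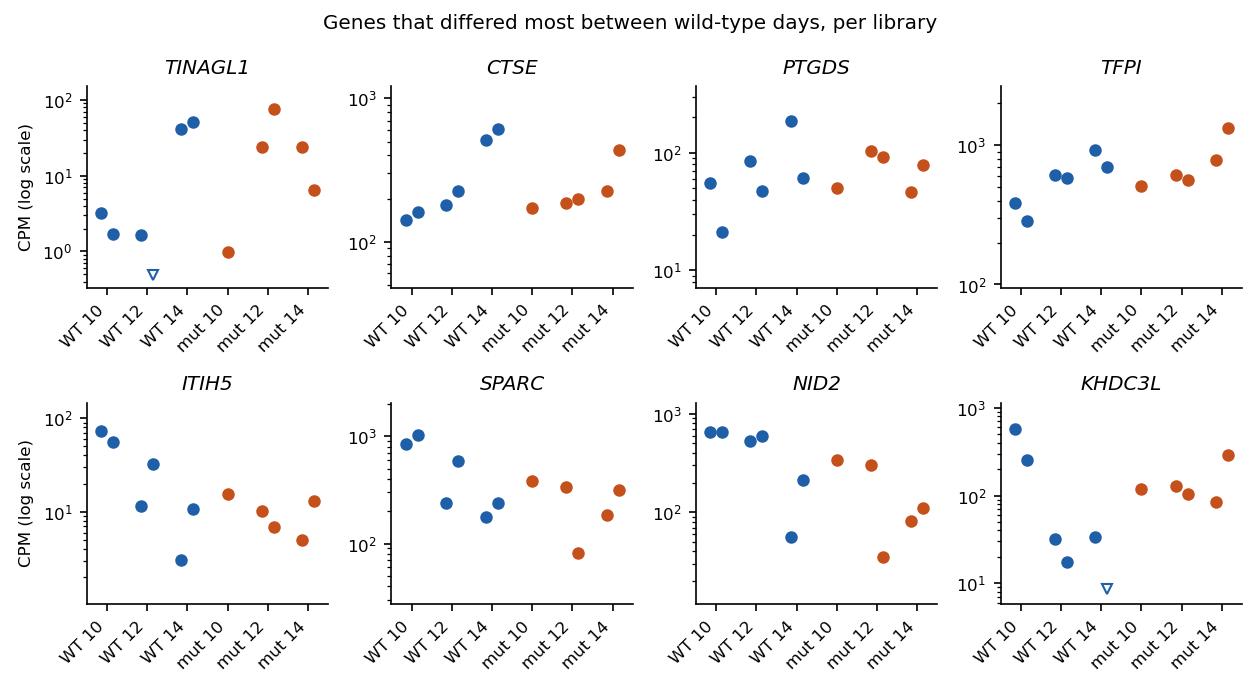
Level of 8 genes in summed endoderm-like cells by genotype and day, in CPM on a log axis, with 1 point per library (blue wild type, orange mutant; the left point of a pair is batch 1; an open triangle at the foot of a panel marks a library at 0). In wild type the Day 14 libraries lie above the Day 10 libraries for TINAGL1, CTSE, PTGDS and TFPI and below them for ITIH5, SPARC, NID2 and KHDC3L.

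Day 12 against Day 10 in wild type gave 0 of 9661 genes (0%) past the FDR by edgeR, with 489 at an unadjusted p under 0.05 and 8 genes past the FDR by DESeq2. SPON2, a secreted matrix protein, was at 32.6 and 25.3 CPM at Day 10 and 85.9 and 316 CPM at Day 12 (2.63 ± 0.53, adjusted p = 0.268). MIXL1 stood at 27 and 66.7 CPM at Day 12 (-2.50 ± 0.59, adjusted p = 0.432) and KHDC3L already near its Day 14 level. DESeq2 passed SPON2 among these genes. CAVIN3 and SH2D4A were next in p in either direction. RPL14, NTS and LOC102137969, also of small p, were highest in the first Day 12 library, with 58.9, 1908 and 134.9 CPM there against 0, 118 and 7.41 CPM in the second. RPL14 was also at 79.2 CPM in trophoblast-like cells of that library and at 0.107 CPM in those of the second.

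Mutant and wild type were compared at Day 14 and at Day 12, with Day 10 left out for its single mutant library, to ask how the endoderm-like cells differ when ISL1, a transcription factor gene that the study followed in the amnion, is edited. At Day 14 edgeR called 0 of 9661 genes (0%), with 671 at an unadjusted p under 0.05, and DESeq2 called 15. At Day 12 it called 0 of 9661 (0%), with 650 at an unadjusted p under 0.05, and DESeq2 called 5. The comparisons at Day 14 and between wild-type days share the wild-type libraries of Day 14.

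The pattern shared by most genes of 1 list was that of hypoxia and glycolysis, of which 27 were tested. These genes take part in glucose breakdown or are targets of the oxygen-sensing factors HIF. At Day 14 both mutant libraries lay above both wild-type libraries for 26 of the 27, against 16.8% of all genes tested and 21.1% of the 825 tested genes with a symbol. The list was drawn from genes with a symbol, which come from the marker and differential-expression tables of the study and were thus partly chosen on these samples, so neither share is an independent background. All 27 log2 changes were positive (median 1.67, against -0.06 over all genes), 20 had an unadjusted p under 0.05, 0 passed the FDR by edgeR and 5 passed it by DESeq2 (NDRG1, DDIT4, P4HA1, ANKRD37 and FAM162A). Leaving out any 1 of the 11 libraries gave medians of 1.18 to 2.41. The median was 1.49 without the second mutant library of Day 14. Between the libraries numbered 1 alone 27 of 27 were higher in the mutant (median 0.76), against 5086 of all 9661 genes, and between those numbered 2 alone 26 of 27 (median 2.41), against 4165. These numbers are the batch names that the labels give in both genotypes. Here and below, medians between same-numbered libraries are of log2((CPM + 25)/(CPM + 25)) and not of edgeR log2 changes. The added 25 CPM makes them smaller for genes of low level, so the 2 kinds of median are not on the same scale.

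NDRG1, a stress-induced gene, was at 31.2 and 30.7 CPM in wild type and 226 and 501 CPM in mutants at Day 14 (log2 change 3.44 ± 0.61 SE, adjusted p = 0.173). DDIT4, which restrains mTOR, was at 33 and 32.5 CPM against 153 and 696 CPM (3.55 ± 0.71, adjusted p = 0.218). P4HA1, which hydroxylates collagen, was at 197 and 114 CPM against 589 and 988 CPM (2.25 ± 0.48, adjusted p = 0.238), and ANKRD37 at 24.2 and 3.61 CPM against 94.8 and 280 CPM (3.30 ± 0.69, adjusted p = 0.238). For each of these 4 the lower mutant library was above the higher wild-type one, as in 16.8% of all tested genes, and these examples were picked by p. The log2 changes without the second mutant library were 2.90 for NDRG1, 2.26 for DDIT4, 1.93 for P4HA1 and 2.53 for ANKRD37.

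The difference was not of the same size in the 2 wild-type libraries. BNIP3, a mitochondrial protein of mitophagy, was at 2424 and 663 CPM in wild type and 3314 and 7705 CPM in mutants at Day 14, and PGK1, a glycolytic enzyme, at 823 and 511 CPM against 1181 and 3322 CPM. Summed over the 27 genes, wild-type libraries were at 8301 and 7638 CPM at Day 10, 7524 and 5982 CPM at Day 12 and 14635 and 5917 CPM at Day 14. The first wild-type library of Day 14 thus lay above the mutant library of Day 10 (7294 CPM) and the first of Day 12 (10786 CPM), and below the others (24382 CPM at Day 12, and 20461 and 37425 CPM at Day 14). It was also the wild-type library with the lowest share of mitochondrially encoded transcripts in its endoderm-like cells, a median of 1.43%.

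The list was also examined in trophoblast-like and epiblast-like cells of the same libraries, while mesenchyme-like cells are not given here. In trophoblast-like cells 20 of the 27 genes lay higher in both mutant libraries of Day 14, against 21.7% of all genes and 28.8% of those with a symbol, and the sums were 6827 to 10016 CPM in wild type and 8402 to 13473 CPM in mutants. In epiblast-like cells the sums were 9309 to 17568 CPM in wild type and 28369 and 37786 CPM in mutants at Day 14. The mutant effect in endoderm-like minus that in trophoblast-like cells had a median of 0.39 over the 27 genes, with 11 at an unadjusted p under 0.05, against 1324 of all 13980 genes, and 0 past the FDR. The cause of the difference was not tested.

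**Figure D5:**
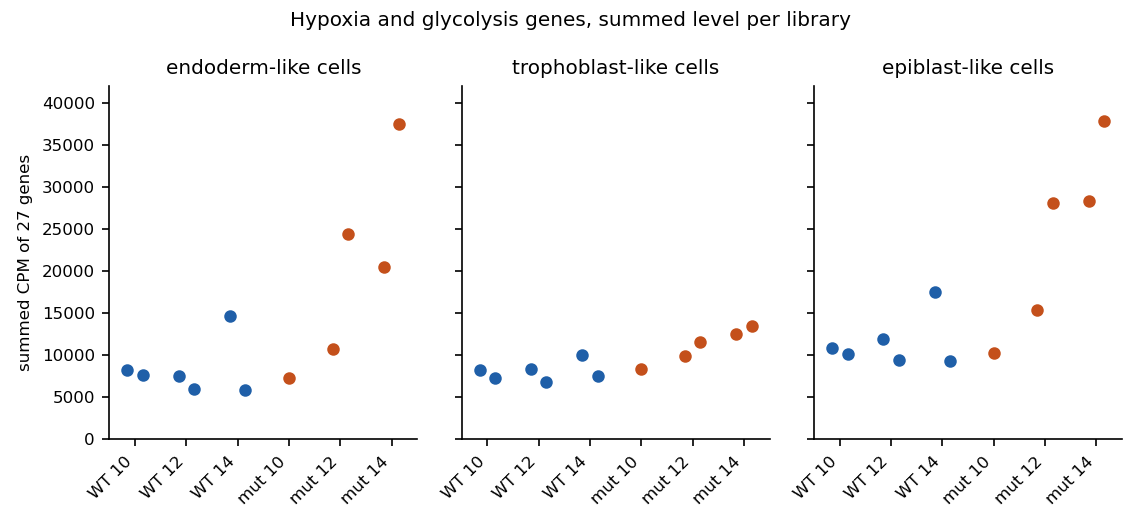
Summed level of the 27 tested hypoxia and glycolysis genes, in CPM, in endoderm-like, trophoblast-like and epiblast-like cells, with 1 point per library (blue wild type, orange mutant; the left point of a pair is batch 1). Mutant libraries of Day 14 are the highest of their day in all 3 panels, and the first wild-type library of Day 14 is the highest wild-type library.

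At Day 12 the same list had 18 of 27 genes higher without overlap, against 21.6% of all genes and 29.8% of those with a symbol (median 1.43), and 25 were positive. In trophoblast-like cells 19 of the 27 lay higher at Day 12, against 30.4% of all genes and 36.8% of those with a symbol. Between the libraries numbered 1 alone 19 of 27 were higher in endoderm-like cells of the mutant (median 0.31), against 6223 of all 9661 genes, so a share near that of all genes, and between those numbered 2 alone 26 (median 1.49), against 4209. SLC16A3, a lactate exporter, was at 17.2 and 7.41 CPM in wild type and 87.9 and 341 CPM in mutants (3.81 ± 0.91, adjusted p = 0.494). In mutants Day 14 lay above Day 12 for 12 of the 27 (15.3% of all genes, 20.2% of those with a symbol) and all 27 changes were positive (median 1.09). Without the second mutant library of Day 14 23 of them were positive (median 0.55). In wild type Day 14 lay above Day 10 for 9 of 27, against 19.4% of all genes and 25% of those with a symbol (median 0.59), but without 1 library the median ranged from -0.14 to 1.07. The mutant effect at Day 14 minus that at Day 12 had a median of 0.42 with 15 of 27 positive, and 0 of 9661 genes (0%) passed in that test (485 at an unadjusted p under 0.05, 6 by DESeq2).

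Among all named genes, those of smallest p at Day 14 were MGARP, a mitochondrial protein, with 0.879 and 0 CPM in wild type and 49.9 and 143 CPM in mutants (adjusted p = 0.0740), and TMEM45A, a transmembrane protein, with 22.8 and 14.4 CPM against 152 and 215 CPM (log2 change 3.12 ± 0.51, adjusted p = 0.115). After NDRG1 came HMOX1, which degrades heme, with 27.7 and 39.7 CPM against 138 and 319 CPM (2.69 ± 0.48, adjusted p = 0.173), and TMEM191C. Lower in mutants were CYB5A, cytochrome b5, with 325 and 457 CPM against 178 and 65.0 CPM (-1.56 ± 0.42, adjusted p = 0.501), FTH1, the ferritin heavy chain, with 6440 and 8077 CPM against 2888 and 2185 CPM (-1.53 ± 0.47, adjusted p = 0.587), SFRP1, a secreted WNT antagonist, with 461 and 146 CPM against 84.8 and 71.5 CPM, ABRACL and LOC101867369. None passed the FDR by edgeR, and MGARP, TMEM45A, NDRG1, HMOX1 and TMEM191C passed it by DESeq2. With the second mutant library left out, the log2 change was 2.97 for TMEM45A, 2.13 for HMOX1, -1.06 for CYB5A, -1.84 for SFRP1 and -1.27 for FTH1, and again 0 genes passed by edgeR.

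The endoderm's own products did not follow the genotype in 1 direction at Day 14. Of the 9 lipoproteins and carriers 2 lay higher and 2 lower without overlap (median 0.26), of 16 metabolism and transport genes 2 and 3 (median -0.30), and of 8 basement membrane genes 0 and 1 (median -0.38). The background was 16.8% of all genes higher and 20.3% lower, and 21.1% and 18.7% of those with a symbol. F2 was at 117 and 287 CPM in wild type and 427 and 358 CPM in mutants (0.99 ± 0.41, adjusted p = 0.694), and CTSE at 514 and 610 CPM against 227 and 436 CPM (-0.84 ± 0.32, adjusted p = 0.687). All 13 mitochondrially encoded genes had negative changes (median -0.70), with 0 of them free of overlap. Their sum was 12011 and 44460 CPM in wild type and 22388 and 10735 CPM in mutants at Day 14, so the first wild-type library lay between the mutant ones. The direction differed between the batch numbers, since between the libraries numbered 1 all 13 were higher in the mutant (median 1.08) and between those numbered 2 all were lower (median -2.17). Of 16 cell cycle genes 14 were negative (median -0.56), 5 of them without overlap. Of 10 stress genes 3 lay higher and 2 lower without overlap (median 0.52), with ATF3 (8.35 and 19.9 CPM against 78.6 and 58.5 CPM) and DDIT3 (20.7 and 34.3 CPM against 88.6 and 45.5 CPM) among the higher ones. Without the second mutant library the medians were 0.20 for lipoproteins and carriers, -0.12 for metabolism and transport, -0.17 for basement membrane, -0.14 for mitochondrially encoded genes, of which 11 of 13 were then negative, -0.73 for the cell cycle and 0.66 for stress genes. Among the other lists of this paragraph, the median was of different sign between the libraries numbered 1 and those numbered 2 for lipoproteins and carriers (0.30 and -0.13), metabolism and transport (0.12 and -0.67, with 10 and 3 of 16 higher) and basement membrane (0.23 and -0.73, with 7 and 3 of 8 higher). Elsewhere it also differed in sign for anterior endoderm (-0.63 and 0.78, with 0 and 4 of 4 higher), WNT signalling, naive-state and maternal-effect genes, and other epiblast and mesenchyme markers. It was of 1 sign for the cell cycle (-0.52 and -0.11, with 2 and 7 of 16 higher) and stress genes (0.73 and 0.07).

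At Day 12 the named genes of smallest p were higher in mutants, and DESeq2 passed ASS1, CCND1 and TMEM45A. ASS1, a urea cycle enzyme, was at 16.4 and 37.0 CPM in wild type and 143 and 128 CPM in mutants (2.43 ± 0.39, adjusted p = 0.212), and CCND1, cyclin D1, at 0 and 9.87 CPM against 74.8 and 55.7 CPM. TINAGL1 was at 1.64 and 0 CPM against 24.3 and 76.6 CPM (adjusted p = 0.212), TMEM45A at 5.72 and 4.94 CPM against 35.5 and 104 CPM, and TM7SF2, a sterol reductase, at 8.18 and 4.94 CPM against 42.7 and 60.3 CPM. In the other direction stood NLRP2, a maternal-effect gene (896 and 457 CPM against 245 and 149 CPM, -1.86 ± 0.51, adjusted p = 0.506), SLC18B1, CD70 and the neuropeptide genes NTS and NPY.

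Among genes with a symbol, TINAGL1 and ASS1 had the smallest p for a mutant effect that differs between the days. TINAGL1 lay above wild type in mutants at Day 12 and below it at Day 14 (41.3 and 50.6 CPM in wild type, 23.7 and 6.50 CPM in mutants) (edgeR, adjusted p = 0.255). Its lowest values rest on few UMIs. The second mutant library of Day 14 held 153801 UMIs in 9 endoderm-like cells, and the second wild-type one of Day 12 held 405072. For ASS1 the difference of the effects was -2.58 ± 0.54 (log2, adjusted p = 0.578). Of smallest p in the other direction were S100A14 (3.16 ± 0.67, adjusted p = 0.578) and DDIT3, CRHBP, FOLH1 and ANXA3 (adjusted p = 0.742 each). CRHBP, which binds corticotropin-releasing hormone, was at 200 and 114 CPM in wild type and 43.2 and 78.9 CPM in mutants at Day 12, and at 66.4 and 77.6 CPM against 153 and 247 CPM at Day 14. These differences between days did not pass the FDR by edgeR, and S100A14 passed it by DESeq2.

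Between Day 12 and Day 14 of the mutant edgeR called 0 of 9661 genes (0%), with 560 at an unadjusted p under 0.05, 5 past the FDR with the batch as a block and 13 by DESeq2. MGARP went from 2.43 and 9.28 CPM to 49.9 and 143 CPM (4.39 ± 0.77, adjusted p = 0.175). FOLH1, a folate hydrolase, went from 8.26 and 6.96 CPM to 57.4 and 52.0 CPM, and UACA, a regulator of apoptosis, from 222 and 181 CPM to 503 and 689 CPM. CTSL, a lysosomal protease, went from 146 and 292 CPM to 69.8 and 65.0 CPM (-1.60 ± 0.40, adjusted p = 0.473), and DNMT3L, a cofactor of DNA methylation, from 57.8 and 48.7 CPM to 6.24 and 0 CPM. SLC25A4, TUBB6 and DNAJC15 were next among lower genes. Among named genes DESeq2 passed MGARP, UACA, NDRG1 and DDIT4. Of 5 coagulation genes 4 lay higher at Day 14 without overlap and of 9 lipoproteins and carriers 5, against 15.3% of all genes and 20.2% of those with a symbol, and of 13 mitochondrially encoded genes 11 lay lower, against 24.9% and 23.9%. Without the second mutant library of Day 14 the medians of these lists went from 0.67 to 0.61, from 0.56 to 0.70 and from -0.79 to -0.37, and the log2 change of CTSL was -1.51.

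Over all days, with day as a covariate, 2 of 8800 genes (0.0227%) passed the FDR, 4 with the batch as a block and 25 by DESeq2. Both were higher in mutants, ENSMFAG00000040719 (log2 change 6.69 ± 0.67 SE, adjusted p = 0.00153) and ENSMFAG00000027138 (6.28 ± 0.74, adjusted p = 0.00508), the transcripts that were at 0 in the second mutant library of Day 14. Without the mutant library of Day 10, without the first of Day 14 or without the first wild-type library of Day 10 no gene passed. The count was 3 without the second mutant library of Day 14, where the adjusted p was 0.000127 for ENSMFAG00000040719 and 0.000263 for ENSMFAG00000027138 (edgeR). As given above, the genotypes differed in the same way in trophoblast-like cells.

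TMEM45A and MEIS2 came nearest among genes with a symbol. TMEM45A was at 4.25 to 22.8 CPM in the 6 wild-type libraries and at 14.4 CPM at Day 10, 35.5 and 104 CPM at Day 12 and 152 and 215 CPM at Day 14 in mutants (2.83 ± 0.39, adjusted p = 0.0121). MEIS2, a homeobox factor, was at 2.30 to 9.23 CPM in wild type and at 23.8 to 27.9 CPM in the 5 mutant libraries (2.17 ± 0.33, adjusted p = 0.0264). Within each day it lay higher in mutants without overlap, as did 2.31% of all tested genes, and it was picked by p. In the second mutant library of Day 14 its level rests on few UMIs. Mesenchyme-like cells had 132 to 248 CPM of MEIS2. ANKRD37 and NDUFA4L2, both of the hypoxia list, followed with 3.32 ± 0.58 (adjusted p = 0.0618) and 4.92 ± 1.04 (adjusted p = 0.130), and COL9A2, a collagen, with 1.09 ± 0.22. With the batch as a block TMEM45A passed (2.80, adjusted p = 0.00614), and DESeq2 passed all 5. Leaving out the second mutant library of Day 14 gave 2.72 for TMEM45A (adjusted p = 0.0537), 2.22 for MEIS2 (adjusted p = 0.0579), 2.83 for ANKRD37, 3.64 for NDUFA4L2 and 1.18 for COL9A2. Compared within each day, 7 of 26 tested genes of the hypoxia list lay higher in every mutant library than in both wild-type libraries of that day, at all 3 days, against 2.31% of all genes and 3.89% of the 797 with a symbol, and in trophoblast-like cells 11 did, against 6.08% and 10.7%.

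On the lower side the metallothioneins, which bind zinc and copper, had 5 of 5 negative changes over all days (median -3.12), with 1 of them lower without overlap within each of the 3 days, against 1.35% of all genes and 1.88% of those with a symbol. The median was -3.13 without the second mutant library of Day 14. At Day 14 alone it was -1.19. As log2((CPM + 25)/(CPM + 25)) between the libraries numbered 1 and those numbered 2 the median was then -0.004 and -1.41, with 2 and 1 of 5 genes higher. At Day 12 these medians were -1.52 and -1.70, with 0 of 5 higher in each. MT1B was at 33.8 to 476 CPM in wild type and 2.49 to 45.5 CPM in mutants (-3.29 ± 0.68, adjusted p = 0.130). MT1X overlapped between the genotypes, with 32.1 to 233 CPM in wild type, 4.64 to 125 CPM in 4 mutant libraries and 702 CPM in the second mutant library of Day 14. NLRP2 was at 265 to 896 CPM in wild type and 124 to 278 CPM in mutants (-1.44 ± 0.30, adjusted p = 0.130). NEFL, a neurofilament, LOC101867369 and LOC102139484 completed the genes of smallest p. NLRP2 passed with the batch as a block (-1.54, adjusted p = 0.00573), and DESeq2 passed NLRP2, NEFL and LOC101867369.

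The mutant effect in endoderm-like cells was set against that in trophoblast-like cells of the same libraries, with the library as a block, and 1 of 13980 genes (0.00715%) differed. ENSMFAG00000044471 was at 67.3 to 455 CPM in wild-type endoderm-like cells and at 158 CPM at Day 10, 104 and 85.9 CPM at Day 12 and 23.7 and 13.0 CPM at Day 14 in mutants, while trophoblast-like cells had 0.321 to 4.58 CPM in wild type and 2.13 to 5.84 CPM in mutants (difference of the effects -2.63 ± 0.33, adjusted p = 0.00532). Near the threshold were IGFBP5 (-3.09 ± 0.43) and SERPINE2 (-3.69 ± 0.54), each with adjusted p = 0.0104. SERPINE2 was at 874 to 1672 CPM in wild-type and 673 to 1476 CPM in mutant endoderm-like cells, and in trophoblast-like cells at 0.482 to 53.4 CPM and 6.92 to 265 CPM. Both the endoderm-like and the trophoblast-like levels overlapped between the genotypes.

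TNNT1, LBH and RGS5 were of the same kind, with adjusted p = 0.0122. In the other direction were GLIPR2 (2.20 ± 0.35, adjusted p = 0.0122), BCAM, a laminin receptor, ACSM3, HMOX1 and APCDD1. GLIPR2 was at 10.8 to 69.6 CPM and 23.2 to 61.9 CPM in endoderm-like cells of wild type and mutant and at 14.3 to 200.4 CPM and 11.6 to 48.1 CPM in trophoblast-like ones. HMOX1 was at 27.7 to 99.8 CPM and 103 to 319 CPM in endoderm-like cells and at 83.1 to 763 CPM and 111 to 186 CPM in trophoblast-like ones. It was picked by its small p in this same comparison. With the pairing by batch as a block the count was 6 genes, among them HMOX1 (2.30, adjusted p = 0.00440), IGFBP5 (-2.99), SERPINE2 (-3.56) and TNNT1 (-1.74, adjusted p = 0.00297 for all 3). DESeq2 passed these 4 and LBH, RGS5, GLIPR2 and BCAM. Without the first wild-type library of Day 14 the edgeR count was 49. Without either mutant library of Day 14 it was 0, so the call of ENSMFAG00000044471 rests on both.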

How the data were processed

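Per the labels and the methods of the study, cells were captured with 10x 3′ chemistry, and the authors counted reads with Cell Ranger 3.1.0 on the Ensembl annotation of the cynomolgus genome, filtered genes and cells and subtracted free RNA with SoupX. The authors deposited corrected values, which are expected counts (whole numbers, UMIs after subtraction), and uncorrected counts, and both are without scaling. Corrected values were used, and the uncorrected counts served as an alternative.

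Of 19367 genes 1014 have a symbol in the supplementary tables, and the others are named by identifier. The members, lists and tests were chosen with earlier results of these data known. UMIs were summed per library over members, and libraries with at least 5 members were compared with edgeR 4.0.16 (R 4.3.3; TMM, filterByExpr, quasi-likelihood test, two-sided, Benjamini-Hochberg, FDR 1%). A fit of group means was used for days and genotypes (5 residual degrees of freedom), an additive fit of day and genotype for all days, and a fit with the library as a block for the difference from trophoblast-like cells. The 25 genes of the rule counted for normalization but were not tested. The SE of an edgeR log2 change was derived as its absolute value divided by the square root of the F statistic. It is an approximation and need not match the p beside it. Scripts were tested on simulated data. Genes were named as the 5 of smallest p in each direction where fewer passed, as up to 4 examples per list, and as the 20 largest differences from other cells. Libraries pool embryos, and p-values measure only the spread between these libraries, which may be technical in part. DESeq2 1.42.0 and scanpy 1.11.5 (Scrublet) were used for alternatives.

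The labels give a batch number to each library. For comparisons of days within a genotype, libraries of that genotype with the same number shared a block. For all other comparisons 1 block term was used for same-numbered libraries of both genotypes. Deviations of same-numbered libraries from the group means correlated at 0.0386 to 0.262 (wild type) and 0.167 (mutant), and between genotypes at -0.127 to 0.0664. The block over both genotypes thus rests on the batch names and not on these correlations. Values with the batch as a block stand beside results that it changes. The lists hold genes with a symbol only, so the share of tested genes with a symbol is given beside that of all tested genes.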

Additional observations from a re-analysis of the deposited data

Results flagged for a closer look

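The gene ENSMFAG00000044471 was flagged because the mutant effect differed between endoderm-like and trophoblast-like cells (difference of the effects -2.63 on the log2 scale, edgeR, adjusted p = 0.00532). In this comparison no gene passed without the first mutant library of Day 14 or without the second.

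The uncorrected table holds 209 cells that the corrected table lacks. Of these, 4 met the rule for endoderm-like cells. They entered only the share of cells with uncorrected counts, not the summed UMIs of that alternative or the reported values. The count is given without a test.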

How the results depend on the processing

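Few genes passed in any comparison, and the counts depended on the method. In the order wild type Day 14 against Day 10, wild type Day 12 against Day 10, mutant against wild type at Day 14 and at Day 12, mutant Day 14 against Day 12, the difference of the mutant effects between days, all days, and endoderm-like minus trophoblast-like, the counts of 2, 0, 0, 0, 0, 0, 2 and 1 became 36, 8, 15, 5, 13, 6, 25 and 49 with DESeq2, and 294, 100, 116, 143, 92, 80, 210 and 331 without a filter on low counts. With the batch as a replicate block they were 12, 0, 0, 0, 5, 0, 4 and 6. Leaving out 1 library at a time gave 0 to 4, 0, 0, 0, 0 to 1, 0 to 1, 0 to 4 and 0 to 49. The last of these was 49 without the first wild-type library of Day 14, 29 without the mutant library of Day 10, 19 and 10 without the wild-type libraries of Day 10, and 0 without either mutant library of Day 14. The count for wild-type Day 14 against Day 10 was 0 with libraries of at least 20 members only, and 0 without the wild-type library of batch 1 at Day 10, Day 12 or Day 14 or without any of the mutant libraries of Day 10 and Day 14. Over all days it was 4 with members that had at least 4 endoderm genes and 4 without the first mutant library of Day 12. The difference from trophoblast-like cells gave 6 with uncorrected counts, 8 with at least 4 endoderm genes, 3 with a margin of 0.5, 4 without doublets and 5 with at least 20 members per library. The causes were not tested.

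The share of endoderm-like cells was lower in mutants under all 17 alternatives, with differences of -2.31 to -1.03 percentage points without 1 library and p from 0.0556 to 0.296 (exact permutation tests). Without the second mutant library of Day 14, an alternative added after the data had been seen, the median of the basement membrane list in mutants at Day 14 against Day 12 went from 0.0827 to -0.0225. Of 136 results for named genes, 2 changed direction. RPL14 at wild-type Day 12 against Day 10 was -1.77 without the first Day 12 library (up to 8.54 without another one), and LUM at Day 14 against Day 10 was -1.34 without the first Day 14 library (up to 6.87). With at least 20 members per library, wild type Day 12 against Day 10, mutant against wild type at Day 12 and the difference between days could not be fitted, because no wild-type library of Day 12 was left.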
